A study of Mus musculus with 12 samples.

Results

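The 10 genes followed here belong to major histocompatibility complex (MHC) class I antigen presentation and were measured in CD4+ T cells of a microarray series on Th17 cells. They are the immunoproteasome catalytic subunits Psmb8, Psmb9 and Psmb10, the proteasome activator genes Psme1 and Psme2, the peptide transporter genes Tap1 and Tap2, the loading factor gene Tapbp, the class I light chain gene B2m and the transactivator gene Nlrc5. Members were chosen by name, and a gene was read only through probe sets annotated to it alone. On that rule 9 of the 10 genes had at least 1 probe set, 15 probe sets in all of the 45101 on the array. The only probe set listed for Psme2 is also annotated to Psme2b, so Psme2 was not read. All cells came from female mice, and each of the 4 groups had 3 arrays. SKG mice, on the BALB/c background, carry a Zap70 mutation and develop autoimmune arthritis, and the SKG group held their CD4+ T cells from lymph node at 40 weeks of age. It is set against the BALB/c group, CD4+ T cells of BALB/c mice of the same age. Both groups were stimulated with PMA and ionomycin, which activate T cells past the receptor, and both were labelled FR4- (FR4 is a folate receptor that regulatory T cells carry at high level), except that BALB/c replicate 1 came from spleen and lymph node and is labelled CD4+ with no mention of FR4. The IFN-γ-deficient transfer group held CD4+ T cells from the spleen of RAG2 KO hosts that had received CD4 T lymphocytes of IFNg KO BALB/c mice. The IL-6-deficient transfer group held CD4+ T cells from the spleen of IL-6 KO RAG2 KO hosts that had received CD4 T lymphocytes of IL-6 KO mice. The transfer groups were labelled as 7 weeks old and 7 days after transfer, they share the RAG2 deletion in the host, and their labels name no stimulation. Donor genotype and host genotype differ together between them, and there was no transfer of unmodified cells.

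Class I molecules show peptides from inside the cell to CD8 T cells. The proteasome cuts proteins into peptides, the transporter formed by TAP1 and TAP2 moves them into the endoplasmic reticulum, and tapasin, the product of Tapbp, holds empty class I molecules next to that transporter until a peptide binds. Interferon-γ is known to induce most of these genes through factors that include IRF1, and the induced catalytic subunits replace their constitutive counterparts in newly built proteasomes. NLRC5 acts at the promoters of class I genes together with RFX, CREB and NF-Y proteins.

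Values are log2(intensity + 16) after quantile normalization of the 6 arrays of a comparison, and a gene is represented by its brightest probe set. A gene is called changed where limma gave a Benjamini-Hochberg adjusted p under 0.05 over all genes tested. The ratio of 3′ to 5′ signal of the actin control, a sign of RNA quality, was 1.93 to 2.63 in SKG arrays and 2.95 to 3.98 in BALB/c arrays. In the transfer groups it was 1.60 to 1.67 in replicates 1 and 2, 3.81 in IFN-γ-deficient replicate 3 and 5.13 in IL-6-deficient replicate 3. Replicate 3 thus stood apart in the transfer groups, and it gave the lowest value of its group for 7 of the 9 members in either one. BALB/c replicate 3 had the ratio of 3.98 and a median deposited intensity of 27.6, beside 15.7 in BALB/c replicates 1 and 2. It was lowest of its group for 6 of the 9 members, and SKG replicate 3 for 4. The share of all genes lowest in replicate 3 was not taken, so these counts do not set the members apart. The same ratio of the Gapdh control overlapped, at 2.57 to 3.03 in SKG arrays and 2.86 to 3.28 in BALB/c arrays. Members' results are therefore also given without replicate 3 where that changes them. The labels do not say whether replicates were separate mice, so every p-value rests on array-to-array spread that may be technical. In bulk RNA, fewer cells of a type and less RNA per cell cannot be told apart.

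The series compares SKG with BALB/c cells first. In that comparison 1 of the 9 members, Tap1, was called lower and 0 were called higher, against 11.8% of all 12075 genes tested called lower, 15.7% called higher and 27.5% in either direction. The median log2 difference of the 9 members was -0.11, beside 0.06 for all genes tested. This median turned on single arrays, at -0.30 without SKG replicate 2, 0.0096 without SKG replicate 3, -0.0032 without BALB/c replicate 2 and -0.28 without BALB/c replicate 3, and was -0.069 with scaling to a trimmed mean. Psmb8, Psmb9, Psmb10 and Tap2 also had lower means in SKG cells without passing the test, and Psme1, Tapbp, B2m and Nlrc5 did not. With the replicate number as a block 3 members were lower, Psmb8, Psmb9 and Tap1, against 14.7% of all genes, and 0 were higher, against 19.9% (34.7% in either direction). With replicates 1 and 2 alone, an alternative added after the RNA quality ratios were seen, there were 4, with Tap2 added. In that fit 5081 of all 12018 genes tested were called in either direction, and 56.5% of these calls were higher.

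Tap1 encodes one chain of the peptide transporter. It measured 10.21, 10.00 and 10.29 in SKG replicates 1 to 3, and 10.98, 10.96 and 10.99 in BALB/c replicates 1 to 3. All 3 SKG arrays lay below all 3 BALB/c arrays, and the BALB/c arrays differed among themselves by far less than the gap. Tap1 fell by 0.81 ± 0.13 (SE, n = 3 each) on the log2 scale in SKG cells, 1.75-fold lower (limma adjusted p = 0.0022). The difference was -0.81 without BALB/c replicate 1, the array with another tissue and sort (limma adjusted p = 0.015), and Tap1 stayed called with each other array left out in turn. The other 3 Tap1 probe sets were dim, with a highest deposited intensity of 12.1 in these 6 arrays, and did not pass the filter on low values, a floor of 4.75. Taking the median of its probe sets in place of the brightest therefore left Tap1 untested.

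Tap2 encodes the other chain of the transporter. It measured 9.59, 9.48 and 9.22 in SKG arrays, against 10.07, 10.20 and 9.26 in BALB/c arrays. BALB/c replicate 3 lay within the SKG range and the groups overlapped. The difference was -0.41 ± 0.24 (limma adjusted p = 0.25). Without BALB/c replicate 3 it was -0.70 and passed the test (limma adjusted p = 0.016). Tap2 passed on leaving out no other single array (highest limma adjusted p = 0.58).

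The promoter windows of these genes are shown because Tap1 and Psmb9, 2 members with lower means in SKG cells, lie head to head on chromosome 17 and share most of theirs. Sequences are from RefSeq on the mouse assembly GRCm38.p6 and run from 250 bases before to 50 bases after the first base of the gene. Capitals mark matches to 3 motifs, searched on both strands. They are the interferon-γ-activated site GAS (TTCNNNGAA, its own reverse complement), the interferon response element (GAAA, any 2 bases and GAAA, or its reverse complement) and the NF-Y box (CCAAT, or ATTGG on the other strand). Windows are Tap1 at chr17:34187306-34187605 on the plus strand, Psmb8 at chr17:34197945-34198244 on the plus strand, Psme1 at chr14:55578244-55578543 on the plus strand and B2m at chr2:122147437-122147736 on the plus strand.
Tap1: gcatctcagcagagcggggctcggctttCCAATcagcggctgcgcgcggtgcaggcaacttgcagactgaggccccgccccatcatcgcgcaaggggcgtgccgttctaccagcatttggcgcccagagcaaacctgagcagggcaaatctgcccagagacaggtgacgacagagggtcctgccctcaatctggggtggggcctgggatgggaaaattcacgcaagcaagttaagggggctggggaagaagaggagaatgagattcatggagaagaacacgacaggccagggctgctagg
Psmb8: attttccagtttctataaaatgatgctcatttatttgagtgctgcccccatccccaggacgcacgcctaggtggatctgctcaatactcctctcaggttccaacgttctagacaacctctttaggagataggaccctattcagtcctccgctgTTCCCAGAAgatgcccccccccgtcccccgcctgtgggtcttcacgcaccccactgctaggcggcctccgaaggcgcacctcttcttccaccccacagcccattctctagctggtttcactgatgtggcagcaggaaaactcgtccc
Psme1: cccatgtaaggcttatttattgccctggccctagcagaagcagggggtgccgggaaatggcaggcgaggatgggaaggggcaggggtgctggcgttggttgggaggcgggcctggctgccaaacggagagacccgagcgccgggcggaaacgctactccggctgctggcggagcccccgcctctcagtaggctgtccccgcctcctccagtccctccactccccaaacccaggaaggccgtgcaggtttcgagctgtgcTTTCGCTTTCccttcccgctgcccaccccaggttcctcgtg
B2m: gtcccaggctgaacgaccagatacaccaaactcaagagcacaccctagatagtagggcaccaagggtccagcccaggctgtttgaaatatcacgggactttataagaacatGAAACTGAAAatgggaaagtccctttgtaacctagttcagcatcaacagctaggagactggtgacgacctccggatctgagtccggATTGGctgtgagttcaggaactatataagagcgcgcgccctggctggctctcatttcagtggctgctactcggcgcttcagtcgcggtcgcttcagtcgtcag

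The first bases of Tap1 and Psmb9 are 226 bases apart, and their windows share 275 bases, so the Psmb9 window (chr17:34187281-34187580, minus strand) is nearly the Tap1 window read on the other strand. The CCAAT in the Tap1 window lies at -222 to -218 from the Tap1 start, and the same letters lie at -8 to -4 from the Psmb9 start. Of all 32851 RefSeq windows read, 37.4% hold this box, 8.3% hold the GAS letters and 3.44% hold the interferon response element. Psmb8 holds GAS as TTCCCAGAA at -97 to -89. Psme1 holds the response element as TTTCGCTTTC at 10 to 19 after the start, and B2m holds it as GAAACTGAAA at -139 to -130 with a CCAAT box on the other strand at -53 to -49. Tapbp has 2 CCAAT boxes and Psmb10 has a match to none of the 3 motifs. No 2 matches in a member's window overlap. A match describes letters only and does not show that a factor binds there.

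None of the 3 inducible catalytic subunits passed the test without the block, and all 3 had negative differences. Psmb8, which replaces the chymotrypsin-like subunit, measured 9.72, 9.69 and 10.00 in SKG arrays and 10.15, 10.14 and 10.30 in BALB/c arrays. All SKG values lay below all BALB/c values, which held for 18.5% of all genes tested in this direction (24.9% in the other). The difference was -0.40 ± 0.14 and did not pass the test (limma adjusted p = 0.069). With the replicate block the limma adjusted p was 0.029, and without SKG replicate 3 the difference was -0.49 (limma adjusted p = 0.020). Psmb8 passed on leaving out no other single array (highest limma adjusted p = 0.21). The second Psmb8 probe set was dim, at 5.95 to 6.49 in SKG arrays and 5.81 to 7.51 in BALB/c arrays, with overlapping groups.

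Psmb9, which replaces the caspase-like subunit, measured 10.62, 10.48 and 10.36 in SKG arrays and 11.17, 11.45 and 10.53 in BALB/c arrays. BALB/c replicate 3 fell among the SKG values. The difference was -0.56 ± 0.22 (limma adjusted p = 0.087; blocked by replicate number, 0.024). Each same-numbered pair gave a lower SKG value, by -0.56, -0.97 and -0.16. Without BALB/c replicate 3 the difference was -0.82 (limma adjusted p = 0.0057). Psmb9 passed on leaving out no other single array (highest limma adjusted p = 0.27).

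Psmb10, which replaces the trypsin-like subunit, was the dimmest of the 3. Its values of 7.98, 8.37 and 7.60 in SKG arrays overlapped those of 8.04, 8.48 and 7.76 in BALB/c arrays. The difference was -0.11 ± 0.25 (limma adjusted p = 0.80), with a 95% interval of -0.67 to 0.46.

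Psme1 encodes the alpha subunit of PA28, which opens the proteasome core. It measured 11.44, 11.43 and 11.58 in SKG arrays and 11.45, 11.47 and 11.24 in BALB/c arrays, with overlap. The difference was 0.10 ± 0.11 (limma adjusted p = 0.57), with a 95% interval of -0.15 to 0.35.

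Tapbp measured 11.67, 11.22 and 11.07 in SKG arrays and 11.33, 11.32 and 10.16 in BALB/c arrays. The single low BALB/c value, replicate 3, set the sign of the difference. It was 0.39 ± 0.30 over all arrays (limma adjusted p = 0.39) and -0.0028 without that array. The second, dimmer Tapbp probe set went the other way, at 6.89, 7.27 and 7.15 in SKG arrays and 7.49, 7.53 and 7.35 in BALB/c arrays. Its difference was -0.35 ± 0.17, and no direction is given for Tapbp.

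B2m encodes the light chain that every class I molecule needs. It was the brightest member, at 13.44, 13.41 and 13.42 in SKG arrays and 13.42, 13.39 and 13.43 in BALB/c arrays. The difference was 0.01 ± 0.06 (limma adjusted p = 0.95), with a 95% interval of -0.14 to 0.15. Deposited intensities of this probe set reached 15064.5, so a compressed scale near the top of the array's range was not tested. The second B2m probe set was lower, at 12.76 to 12.90 in SKG arrays and 12.71 to 12.77 in BALB/c arrays, and its difference was 0.09 ± 0.08.

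Nlrc5 measured 9.52, 9.29 and 9.39 in SKG arrays and 9.01, 9.40 and 8.92 in BALB/c arrays. BALB/c replicate 2 lay within the SKG range. The difference was 0.29 ± 0.17 (limma adjusted p = 0.24), with a 95% interval of -0.09 to 0.68.

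**Figure D1:**
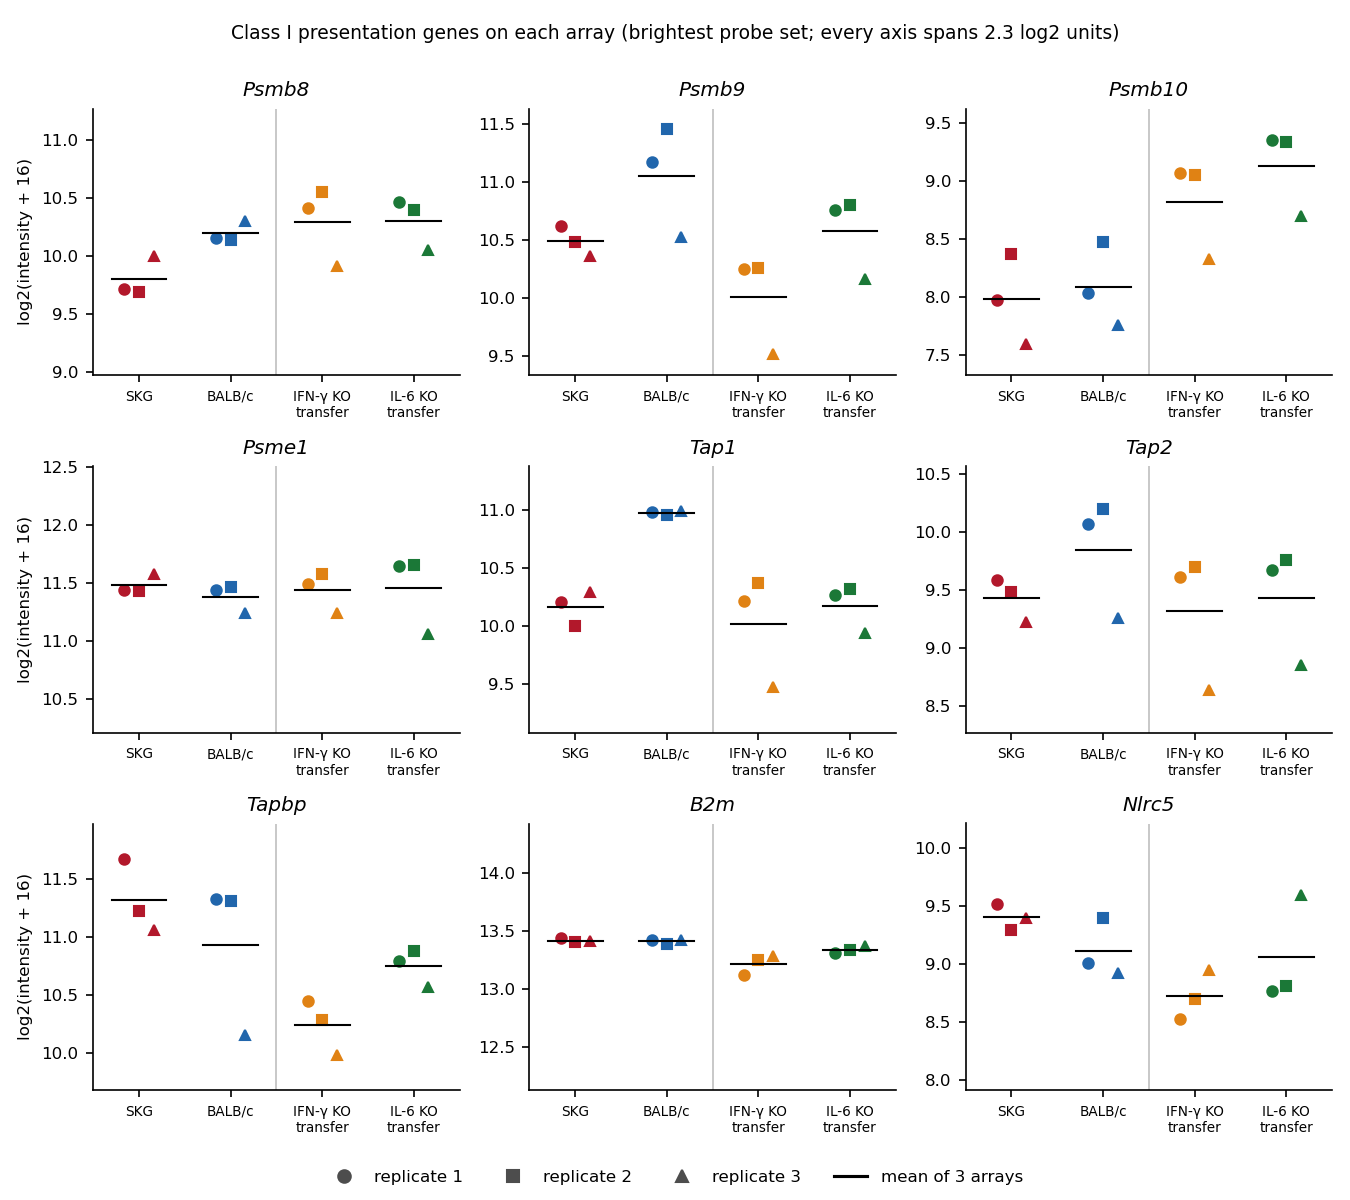
Values of the 9 members on each array, as log2(intensity + 16) normalized within each comparison, with SKG and BALB/c left of the grey line and the IFN-γ-deficient and IL-6-deficient transfer groups right of it. Points are arrays, with a symbol per replicate number, and bars are means of 3 arrays. Tap1 lies at 10.00 to 10.29 in SKG arrays and 10.96 to 10.99 in BALB/c arrays.

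**Figure D2:**
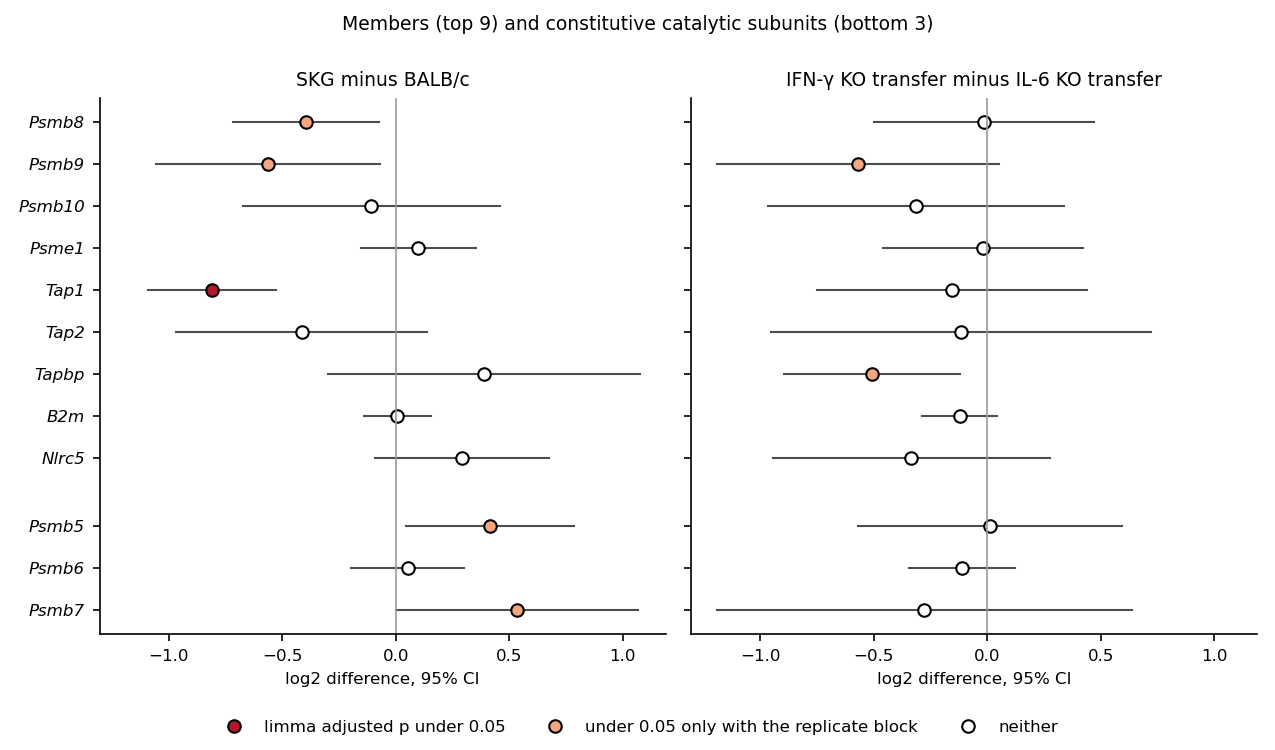
Log2 differences of the 9 members and the 3 constitutive catalytic subunits, SKG minus BALB/c (left) and IFN-γ-deficient minus IL-6-deficient transfer (right), with 95% confidence intervals from limma without the replicate block. Fill shows which genes passed an adjusted p of 0.05 without the block (Tap1 on the left) or only with it.

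The constitutive subunits that the 3 inducible ones replace did not share their direction. Psmb5 averaged 11.91 ± 0.27 in SKG arrays and 11.49 ± 0.23 in BALB/c arrays (SD, n = 3 each), a difference of 0.42 (limma adjusted p = 0.091; blocked by replicate number, 0.0087). Without SKG replicate 3 it passed the test too (limma adjusted p = 0.016), but on leaving out no other single array (highest limma adjusted p = 0.28). Psmb7 averaged 11.30 ± 0.24 in SKG arrays and 10.76 ± 0.49 in BALB/c arrays, a difference of 0.53 (limma adjusted p = 0.13; blocked by replicate number, 0.011). Without BALB/c replicate 3 the Psmb7 difference was 0.25. On leaving out each array in turn its limma adjusted p ran from 0.064 to 0.30. Psmb6 averaged 11.50 ± 0.06 in SKG arrays and 11.44 ± 0.13 in BALB/c arrays, a difference of 0.05 (limma adjusted p = 0.78).

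The gap between each inducible subunit and its counterpart was taken on each array, and only the change of that gap between groups is read. Psmb8 minus Psmb5 was -2.27, -2.43 and -1.61 in SKG arrays and -1.49, -1.46 and -0.92 in BALB/c arrays. Psmb9 minus Psmb6 was -0.83, -1.01 and -1.20 in SKG arrays and -0.39, -0.01 and -0.78 in BALB/c arrays. Psmb10 minus Psmb7 was -3.44, -3.08 and -3.42 in SKG arrays and -3.03, -2.55 and -2.44 in BALB/c arrays. In all 3 pairs every SKG array lay below every BALB/c array, by -0.81, -0.62 and -0.64 between the group means. The share of other gene pairs apart in this way was not taken. Of single genes tested, 18.5% lay lower without overlap in SKG arrays and 24.9% higher. Within the gap of Psmb10 minus Psmb7, Psmb10 itself differed by -0.11 and Psmb7 by 0.53 (0.25 without BALB/c replicate 3). Each pair gave an exact two-sided permutation p of 0.1, the smallest that 3 against 3 arrays allow, and 0.2 after adjustment over the 6 tests of both comparisons, so none passed. In the transfer groups the same gaps changed by -0.02, -0.46 and -0.04, with overlapping groups and exact permutation p of 0.9, 0.3 and 0.8.

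**Figure D3:**
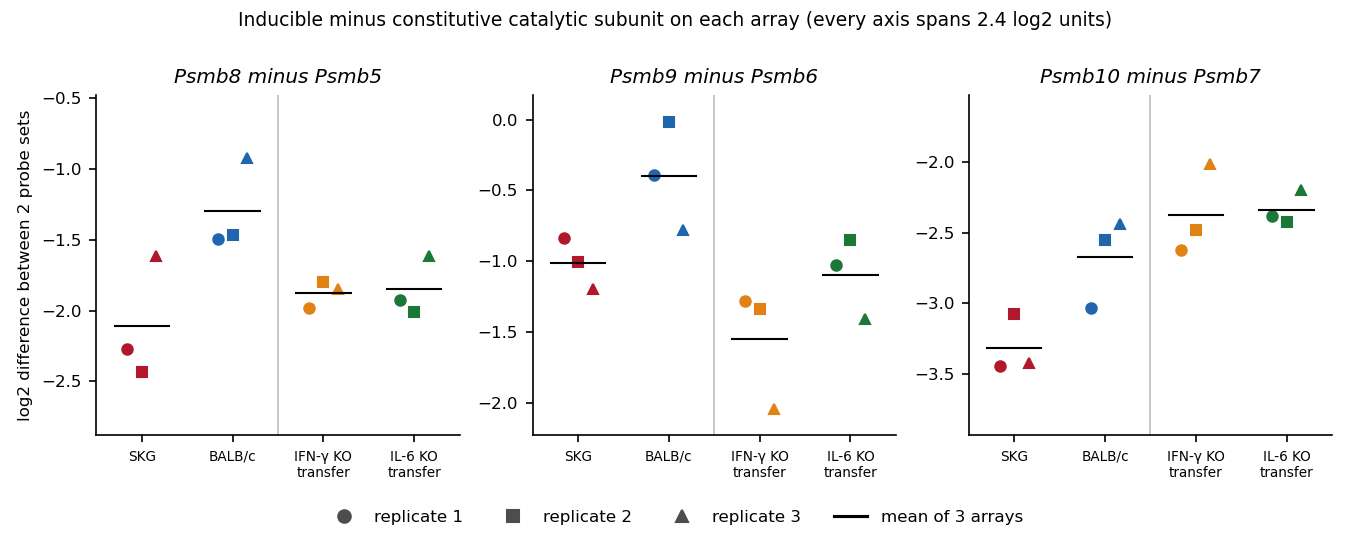
The log2 value of each inducible catalytic subunit minus that of the constitutive subunit it replaces, on each array, in the 4 groups. Points are arrays, with a symbol per replicate number, and bars are means of 3. For Psmb8 minus Psmb5 the SKG arrays lie at -2.43 to -1.61 and the BALB/c arrays at -1.49 to -0.92.

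Counts over the other gene lists of this comparison, cell markers included, are to be read against all genes tested. Of these, 15.7% were called higher and 11.8% lower in SKG cells. Of 11 further subunits of the 20S core, the barrel that holds the catalytic sites, 4 were called higher and 0 lower, with a median difference of 0.30. Psmb3 averaged 11.88 ± 0.09 in SKG arrays and 11.23 ± 0.14 in BALB/c arrays (limma adjusted p = 0.0035). Psma1, a ring subunit of the core, averaged 11.68 ± 0.14 in SKG arrays and 10.89 ± 0.25 in BALB/c arrays (limma adjusted p = 0.0053). Psma1 was not called when its probe sets were summarised by their median. Of 17 subunits of the 19S cap, which unfolds ubiquitin-tagged proteins, 4 were higher and 0 lower, with a median of 0.21 (0.13 without BALB/c replicate 3). Psmd14, the cap's deubiquitinase, averaged 12.49 ± 0.10 in SKG arrays and 11.79 ± 0.14 in BALB/c arrays (limma adjusted p = 0.0020). These counts moved with single arrays. The core count was 2 without SKG replicate 2. The cap count was 1 without SKG replicate 1, SKG replicate 2 or BALB/c replicate 1, and 2 without BALB/c replicate 2. Without normalization between arrays 1 core subunit and 0 cap subunits were called, and Psmb3 and Psmd14 were not.

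Of 8 assembly factors, other activators and an inhibitor, 4 were higher in SKG cells and 0 lower, with a median of 0.41. The assembly chaperone gene Psmg2 rose most, to 10.41 ± 0.15 in SKG arrays against 8.98 ± 0.20 in BALB/c arrays, a log2 difference of 1.42 (limma adjusted p = 0.00052), and it was called under each alternative run. Pomp, a maturation factor of both proteasome forms, differed by 0.84 (limma adjusted p = 0.0047) and was not called without normalization between arrays. The count was 2 without SKG replicate 1 or without either of BALB/c replicates 1 and 2, and 1 without normalization between arrays.

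Of 7 further loading and trimming genes 3 were higher and 1 lower in SKG cells, with a median of 0.32. The chaperone gene Canx differed by 0.44 (limma adjusted p = 0.0054), a call that ended without normalization between arrays, with the median of probe sets and without the intensity trend (highest limma adjusted p = 0.54). The peptide-trimming protease gene Erap1 differed by 0.82 (limma adjusted p = 0.013, and 0.059 without SKG replicate 1). Tapbpl, which encodes the tapasin-related editor TAPBPR, fell by 0.90, at 8.19 ± 0.13 in SKG arrays and 9.09 ± 0.15 in BALB/c arrays (limma adjusted p = 0.0040). With the median of its probe sets Tapbpl was not called. The number higher was 1 without SKG replicate 1 and 2 without any one of the 3 BALB/c arrays, and 1 without normalization between arrays.

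Class I heavy chain genes gave mixed readings. Of 6 tested, H2-T24 was called higher, at 6.73 ± 0.38 in SKG arrays and 5.84 ± 0.43 in BALB/c arrays (limma adjusted p = 0.039). Leaving out SKG replicate 1 or 3 or BALB/c replicate 1 or 3 ended that call, with a highest limma adjusted p of 0.14. The brightest probe sets of the classical genes H2-K1 and H2-D1 differed by -0.22 and -0.12 and did not pass (limma adjusted p = 0.071 and 0.32). With every probe set tested on its own, 3 of 4 for H2-K1 and 2 of 8 for H2-D1 were called lower in SKG cells, and all 12 had negative differences. In that fit 5067 probe sets were called over the whole array in either direction. The share called lower was not taken, so these counts have no background beside them. The largest fall was that of 1 H2-D1 probe set, at 10.39, 10.66 and 10.80 in SKG arrays and 11.86, 11.87 and 12.11 in BALB/c arrays, a difference of -1.33 (limma adjusted p = 0.00045). Heavy chain genes have near-identical copies, and most of these probe sets can bind several of them, so the gene behind each signal is uncertain.

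Upstream of the members, 5 of 12 tested genes of interferon signalling were called lower in SKG cells and 2 higher, against 11.8% and 15.7% of all genes. Their median was -0.49. Irf1 encodes a factor that binds the interferon response element. It measured 11.57, 11.52 and 11.38 in SKG arrays and 12.67, 12.68 and 12.56 in BALB/c arrays, with no overlap. It fell by 1.14 ± 0.10 in SKG cells, 2.21-fold lower (limma adjusted p = 0.00016), and was called under each alternative run. One of its 2 windows (chr11:53769764-53770063, plus strand) holds GAS as TTCCCCGAA at -90 to -82. Ifnar1, a chain of the type I interferon receptor, fell by 1.06 (limma adjusted p = 0.0015). The kinase gene Tyk2 was higher by 0.84 (limma adjusted p = 0.0057), as was Jak2, by 0.35 (limma adjusted p = 0.014). The Jak2 call ended without SKG replicate 1 or BALB/c replicate 1 (highest limma adjusted p = 0.065). Without normalization between arrays, with the median of probe sets, without the intensity trend and with all 12 arrays in 1 fit it ended too (highest limma adjusted p = 0.62). A second bright Jak2 probe set, at 11.99 to 12.31 in SKG arrays and 12.09 to 12.29 in BALB/c arrays, differed by -0.04. The other 3 lower genes, named after their values were seen, were Ifngr2, Socs1 and Irf9, with differences of -1.01, -0.98 and -0.51. The Ifngr2 call was lost without BALB/c replicate 1 and the Socs1 call without SKG replicate 1 or 2. The Irf9 call was lost without SKG replicate 1 or 2 or any one BALB/c array. The number lower was 3 without SKG replicate 1, SKG replicate 2 or BALB/c replicate 1, and 3 without normalization between arrays, where 1 was higher. Ifng itself, which encodes interferon-γ, was higher, at 13.56, 13.61 and 13.23 in SKG arrays and 12.87, 12.91 and 12.35 in BALB/c arrays (limma adjusted p = 0.0087, and 0.083 without normalization between arrays).

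Among 8 tested factors that act at class I promoters 2 were called higher in SKG cells and 0 lower, against 15.7% and 11.8% of all genes. Their median was 0.26, and it was 0.080 without BALB/c replicate 3 and 0.40 without BALB/c replicate 2. Creb1 differed by 1.03 (limma adjusted p = 0.0014) and Nfyc, an NF-Y subunit, by 0.64 (limma adjusted p = 0.0070). Nfyc was not called without normalization between arrays. The RFX subunit genes did not pass the test.

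**Figure D4:**
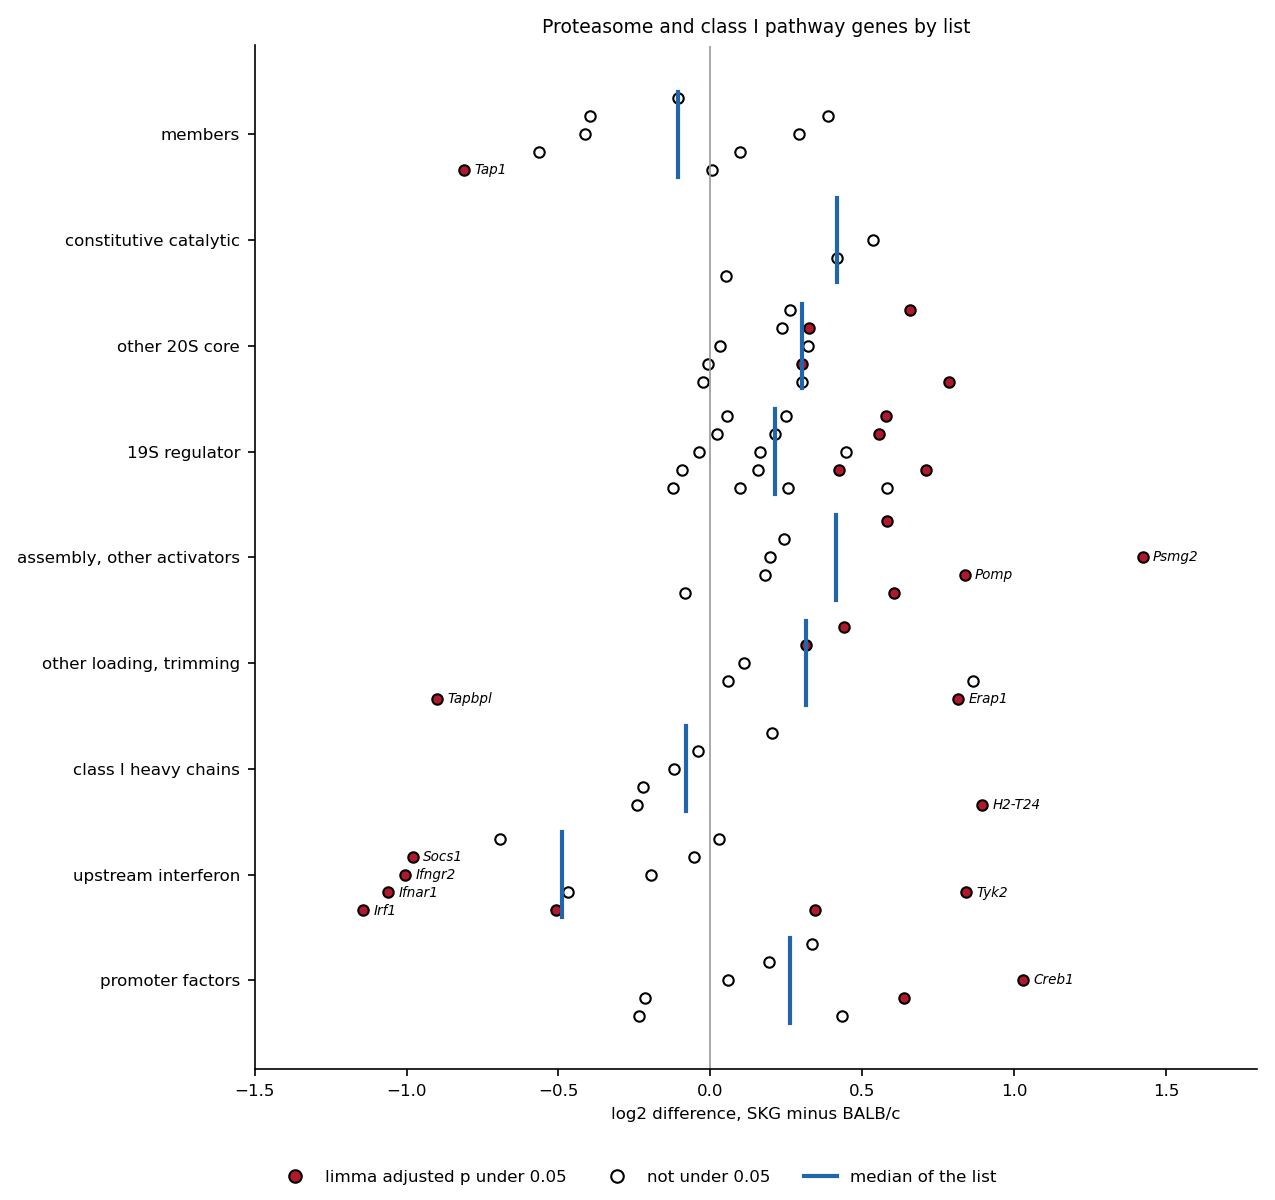
Log2 difference, SKG minus BALB/c, of each tested gene of the members and 8 lists of the proteasome and class I pathway. Points are genes, filled where limma's adjusted p was under 0.05, and blue bars are list medians, from -0.49 for the interferon list to 0.42 for the constitutive catalytic subunits.

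Markers of other cells were read beside these results, and those named were picked after their values were seen. The summed normalized intensity of 8 T cell markers was 16527 to 17851 in SKG arrays and 15795 to 17273 in BALB/c arrays. That of 9 B cell markers was 2999 to 7037 in SKG arrays and 729 to 2599 in BALB/c arrays, nearly all from Ighm, the only one called (higher by 1.94, limma adjusted p = 0.012). Cd8b1 was lower in SKG arrays by -2.49 (limma adjusted p = 0.0036), at 11.7 to 84.5 against 224 to 232 in BALB/c arrays in normalized intensity, while Cd8a was not called. Class II genes, which mark antigen-presenting cells, summed to 1243 to 2193 in SKG arrays and 1446 to 1791 in BALB/c arrays, and 0 of 7 were called. Of 6 plasma cell markers 3 were called higher and 1 lower, with sums of 6413 to 7802 in SKG arrays and 3070 to 3905 in BALB/c arrays. Of the natural killer cell list only Gzma, a granule protease gene that activated T cells also express, was tested, and it was higher by 3.07 (limma adjusted p = 3.0e-05), while the receptor gene Ncr1 did not pass the filter on low values, with normalized intensities of 2.42 to 22.8 in SKG arrays and 3.23 to 18.4 in BALB/c arrays. Of 5 tested dendritic cell markers 1, Zbtb46, was called higher, and 0 were called in the macrophage, neutrophil, erythroid and stromal lists. Within the T cell list Thy1 was called higher and Cd5 lower. The part of other cells in the members' values was not tested.

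The second comparison sets IFN-γ-deficient cells transferred to RAG2-deficient hosts against IL-6-deficient cells transferred to hosts that lack IL-6 and RAG2. Ifng was lower in the arrays labelled IFN-γ-deficient, at 9.58, 8.88 and 9.76 against 13.57, 13.57 and 13.53 in IL-6-deficient arrays, a difference of -4.15 (limma adjusted p = 0.0011). The deleted part of Ifng is not given, and the remaining signal was above the floor of 4.72. None of the 9 members was called by limma, 0 higher and 0 lower, against 0.0652% of 12262 genes called higher and 0.0489% lower. At an unadjusted p under 0.05 there was 1 member, Tapbp, and 527 genes in all. All 9 member differences were negative, with a median of -0.16 beside 0.00 for all genes tested, of which 6033 were negative. Without IFN-γ-deficient replicate 3 Psmb8, Psme1, Tap1 and Tap2 turned positive, at 0.17, 0.081, 0.12 and 0.22, and the median was -0.071. The median was -0.26 without IFN-γ-deficient replicate 1, -0.32 without IFN-γ-deficient replicate 2, -0.27 without IL-6-deficient replicate 3 and -0.29 without normalization between arrays. With the replicate block Psmb9 and Tapbp were called lower, 2 of 9 members, against 0.987% of all genes, and 0 higher, against 0.75% (1.74% in either direction). The same 2 were lower with replicates 1 and 2 alone, where 503 of 12288 genes tested were called in either direction.

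Psmb9 measured 10.25, 10.25 and 9.51 in IFN-γ-deficient arrays and 10.76, 10.80 and 10.16 in IL-6-deficient arrays. IL-6-deficient replicate 3 lay below IFN-γ-deficient replicates 1 and 2, so the groups overlapped, yet each same-numbered pair differed alike, by -0.51, -0.55 and -0.65. The difference was -0.57 ± 0.26 (limma adjusted p = 0.9999; blocked by replicate number, 0.015). Without IFN-γ-deficient replicate 3 it was -0.32.

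Tapbp measured 10.45, 10.29 and 9.99 in IFN-γ-deficient arrays and 10.80, 10.88 and 10.57 in IL-6-deficient arrays. All IFN-γ-deficient values lay below all IL-6-deficient ones, as for 4.53% of all genes tested in this direction (5.4% in the other). The difference was -0.51 ± 0.17 (limma adjusted p = 0.90; blocked by replicate number, 0.027). The second Tapbp probe set had overlapping groups and a difference of -0.31 ± 0.33.

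Tap1, called in the SKG comparison, measured 10.22, 10.37 and 9.47 in IFN-γ-deficient arrays and 10.27, 10.32 and 9.94 in IL-6-deficient arrays. The groups overlapped, and the difference of -0.16 ± 0.25 turned to 0.12 without IFN-γ-deficient replicate 3. Psmb8 likewise overlapped, at 10.41, 10.55 and 9.91 in IFN-γ-deficient arrays and 10.47, 10.39 and 10.05 in IL-6-deficient arrays, with a difference of -0.01 and a 95% interval of -0.50 to 0.47. B2m measured 13.12, 13.26 and 13.29 in IFN-γ-deficient arrays and 13.32, 13.34 and 13.37 in IL-6-deficient arrays. Its groups did not overlap, but the difference of -0.12 ± 0.07 did not pass the test (limma adjusted p = 0.9999). The remaining members, Psmb10, Psme1, Tap2 and Nlrc5, differed by -0.33 to -0.02 with overlapping groups. Of the marker lists 0 genes were called by limma in this comparison, and with the replicate block the T cell marker Cd5 and the plasma cell marker Derl3 were called higher, by 0.43 and 0.98 (limma adjusted p = 0.029 and 0.022). The summed normalized intensity of 6 neutrophil markers was 131.5 to 402 in IFN-γ-deficient arrays and 63.5 to 1605 in IL-6-deficient arrays, and the part of these cells in the members' values was not tested. Of 72 other tested genes of the pathway lists 0 were called by limma in either direction, also with the replicate block, and 1 had an unadjusted p under 0.05. Irf1 differed by -0.22, at 11.51, 11.39 and 10.70 in IFN-γ-deficient arrays and 11.45, 11.53 and 11.28 in IL-6-deficient arrays.

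Whether a gene changed differently in the 2 comparisons was tested in 1 fit of all 12 arrays, and they share no array. None of the 9 members passed by limma, against 8.18% of 12172 genes in either direction (4.84% positive and 3.34% negative). At an unadjusted p under 0.05 there were 2 members, Tap1 and Tapbp, and 2779 of the 12172 genes, a like share. For Tap1 the SKG difference was more negative than the transfer difference by -0.65 ± 0.29 (limma adjusted p = 0.21). It passed with the replicate block (limma adjusted p = 0.014) and without IFN-γ-deficient replicate 3, where the value was -0.92 (limma adjusted p = 0.020). For the brightest Tapbp probe set the SKG difference was the more positive one, by 0.90 ± 0.39 (limma adjusted p = 0.19; blocked by replicate number, 0.011). Over 23 alternatives this value ran from 0.42 to 1.09. The second, dimmer Tapbp probe set differed by -0.35 in the SKG comparison and by -0.31 between the transfers, so no direction is given for Tapbp. With the block 25.7% of all genes passed, 15.3% positive and 10.4% negative.

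Across the 4 groups, with all 12 arrays normalized together, 3 members averaged highest in BALB/c cells (Psmb9, Tap1 and Tap2), 3 in the IL-6-deficient transfer (Psmb8, Psmb10 and Psme1), 3 in SKG cells (Tapbp, B2m and Nlrc5) and 0 in the IFN-γ-deficient transfer. No test was run across all 4, since age, tissue and labelled stimulation differ together. In falling order Tap1 averaged 10.95 ± 0.02 in BALB/c, 10.20 ± 0.20 in IL-6-deficient, 10.15 ± 0.15 in SKG and 10.04 ± 0.48 in IFN-γ-deficient arrays, and only BALB/c stood apart from its neighbour. Psmb9 averaged 11.03 ± 0.47 in BALB/c, 10.59 ± 0.36 in IL-6-deficient, 10.46 ± 0.13 in SKG and 10.02 ± 0.43 in IFN-γ-deficient arrays, where only the last stood apart from its neighbour. Psmb8 averaged 10.33 ± 0.22 in IL-6-deficient, 10.32 ± 0.34 in IFN-γ-deficient, 10.18 ± 0.09 in BALB/c and 9.78 ± 0.17 in SKG arrays, and only SKG stood apart. Psmb10 spanned the widest range of group means, 1.14, with SKG arrays lowest at 7.61 to 8.38 and IL-6-deficient arrays highest at 8.69 to 9.37, and with each neighbouring pair overlapping. Psme1 and B2m spanned the narrowest, 0.12 and 0.17.

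The members did not move as 1 block over the arrays. The SD of the members' mean profile over the 12 arrays was 0.21, and single members lay at a root mean square distance of 0.18 (Psme1) to 0.55 (Psmb10) from it. Among 12060 other genes the 5 nearest to that mean profile were Dcaf15, Me2, Ppp1r7, Mark3 and Scn2a, at distances of 0.10 to 0.11. A mean of 9 genes varies little, and nearness to it over 12 arrays says nothing of shared function.

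By position, Psmb9, Tap1, Psmb8 and Tap2 lie side by side on chromosome 17 of GRCm38.p6, from 34182030 to 34216321, and these 4 were the members with the most negative differences in SKG cells. Tapbp lies further off on the same chromosome, at 33919478 to 33929290. The other members lie on chromosomes 2 (B2m), 8 (Psmb10 and Nlrc5) and 14 (Psme1 and Psme2), and their differences in SKG cells ran from -0.11 to 0.29. This arrangement was noticed in the values and was not tested.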

How the data were processed

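RNA of the 12 samples was prepared with a QIAGEN RNeasy kit, amplified by in vitro transcription and hybridised to Affymetrix mouse expression arrays, per the labels' protocols. The authors deposited 1 linear signal intensity per probe set and array, and the summarisation software is not given in the sources used here. Array medians of these deposited intensities ran from 15.7 to 27.7, so the arrays were quantile normalized within each comparison as log2(intensity + 16). The 64 control probe sets were left out. Of the others, 34958 were annotated to 1 gene, 932 to several and 9211 were not listed, and symbols of 34754 were updated by gene ID. A gene was represented by its brightest probe set and tested if it passed a floor at the 40th percentile. Groups were compared with limma 3.58.1 in R 4.3.3 (lmFit, eBayes with an intensity trend) and Benjamini-Hochberg adjustment over all genes tested. Gaps between paired subunits were compared by exact permutation over arrays. The number of arrays limits the precision. The limma comparisons between groups, with and without the replicate block, were tested on simulated arrays with known changes. Those arrays held no deviation shared by same-numbered replicates, and the other steps were not tested in this way.

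The members and gene lists were chosen with earlier results of these data known. Genes named are every member, the constitutive counterparts, Ifng, Irf1, up to 4 genes of each other list with the smallest p, and the 5 genes nearest to the mean profile of the members. Same-numbered replicates deviated together, with correlations across genes of 0.13, 0.20 and 0.33 for SKG and BALB/c and of 0.46, 0.44 and 0.70 for the transfers. Replicates 1 and 2 correlated across numbers about as well, at 0.17 and 0.44, so the shared part is mainly that of replicate 3. Alternatives were other added constants, scalings, filters and probe set rules, the replicate block, a fit of all 12 arrays and leaving out each array. Promoter windows came from RefSeq on GRCm38.p6 and matched 8 of the 10 members.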

Additional observations from a re-analysis of the deposited data

Results flagged for a closer look

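Beside the members, the difference between the comparisons was read for Ifng and Irf1, and both passed. So did 8.18% of all 12172 genes tested. Of the 72 other tested genes of the pathway lists, Irf1 among them, 5 were called higher and 3 lower. For Ifng the SKG minus BALB/c difference exceeded the IFN-γ-deficient minus IL-6-deficient difference by 4.93 on the log2 scale (limma adjusted p = 8.1e-06). Of the transfer groups, the IFN-γ-deficient one received IFNg KO cells. For Irf1 the difference between the comparisons was -0.91 (limma adjusted p = 0.041). It was lost on leaving out any one of the 12 arrays except IFN-γ-deficient replicate 3. Over all 12 omissions the value ran from -1.15 to -0.76, with a highest limma adjusted p of 0.095. The Irf1 call also ended without the filter, without normalization between arrays, with all probe sets and without the intensity trend (highest limma adjusted p = 0.16). It held under 8 of 23 alternatives. With the replicate block the value was -0.91 with a limma adjusted p of 0.0016.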

How the results depend on the processing

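Tap1 stayed lower in SKG cells and past the limma threshold under all 17 alternatives that gave a value. The number of members lower in SKG cells, 1, became 0 with the median of probe sets, where Tap1 was not tested, 3 with the replicate block, 4 with replicates 1 and 2 only and 1 to 3 on leaving out an array (2 without SKG replicate 3, 3 without BALB/c replicate 3). In the transfer comparison the 0 lower became 2 with the block and 2 with replicates 1 and 2 only. For the difference between the comparisons 0 higher became 1 with either, and 0 lower became 1 with the block, 3 with replicates 1 and 2 only and 0 to 1 on leaving out an array. Beyond the calls named in the text, the block changed no other call of a member.

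Genes called between SKG and BALB/c, 3321, became 1970 without normalization, 5067 with all probe sets, 5081 with replicates 1 and 2 only and 2005 to 3911 on leaving out an array. The transfer count, 14, became 9 with the median of probe sets, 30 with all 12 arrays in 1 fit, 213 with the block, 503 with replicates 1 and 2 only and 2 to 26 on leaving out an array. The count for the difference, 996, became 429 without normalization, 3129 with the block, 3785 with replicates 1 and 2 only and 508 to 1507 on leaving out an array. The causes were not tested.

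Differences near 0 changed sign. Between SKG and BALB/c, Psme1, B2m and Psmb6 were -0.015, -0.059 and -0.056 without normalization, Sec61a1, Nfya and Rfxank -0.0033, -0.015 and -0.0048 with the median of probe sets, and Psme1 and Psmb6 -0.019 and -0.048 with replicates 1 and 2 only. Leaving out an array gave B2m -0.0040 to 0.015, Psmb10 -0.30 to 0.086, Psmb6 -0.019 to 0.11 and Tapbp -0.0028 to 0.59. Between the transfers, Psmb5 was -0.092 without normalization, Psmb8 0.065 with the median of probe sets, and Psmb8, Tap1 and Psmb5 0.048, 0.0016 and -0.027 with replicates 1 and 2 only. Leaving out an array there gave Irf1 -0.37 to 0.030, Psmb5 -0.23 to 0.21, Psmb7 -0.55 to 0.14, Psmb8 -0.14 to 0.17, Psme1 -0.22 to 0.085, Tap1 -0.33 to 0.12 and Tap2 -0.40 to 0.22. For the difference, Psmb9 was -0.00023 with an added constant of 64 and -0.23 with replicates 1 and 2 only, and leaving out an array gave Psmb10 -0.029 to 0.44, Psmb9 -0.25 to 0.21 and Tap2 -0.64 to 0.0019. Psmb8 minus Psmb5 between the transfers was 0.054 with the median of probe sets, 0.075 with replicates 1 and 2 only and -0.11 to 0.090 on leaving out an array, and Psmb10 minus Psmb7 ran from -0.21 to 0.088.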
